A study of Rattus norvegicus with 9 samples.

Results

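Voltage-gated sodium channel genes were examined in dorsal root ganglia (DRG) of adult male Sprague-Dawley rats, in 9 of the 20194 genes of the deposited gene table, 6 coding for alpha subunits and 3 for beta subunits. The 9 were taken by gene symbol and not by their values: Scn1a, Scn3a, Scn8a, Scn9a, Scn10a, Scn11a, Scn2b, Scn3b and Scn4b. All 9 reached a level of 1 FPKM, a unit scaled for library size and gene length, in 1 library or more, and 14305 genes passed this filter and were tested. Each of the sham, SNI and SNI + G15 groups had 3 libraries, and the methods count 3 rats in each, while a supplement of the study counts more. In spared nerve injury (SNI) the tibial and common peroneal branches of the sciatic nerve are tied and cut while the sural branch is left whole, so a ganglion then holds injured and intact neurons side by side. G15, an antagonist of the G protein-coupled oestrogen receptor GPER, was injected into the spinal fluid through a catheter placed on day 5 after SNI. It was given in DMSO, whose share was 2% per the labels and lower per the methods. The labels name 24 hours, and the methods describe injection through the catheter for 24 hours. The labels call the sham and SNI libraries controls for G15 and give the same DMSO share, catheter day and hours for them. As these entries are alike in all 9 libraries, they do not tell the groups apart.

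Voltage-gated sodium channels open when the membrane depolarises and carry the inward current of the action potential. Each channel has 1 pore-forming alpha subunit, which can form a channel alone, and smaller beta subunits, which span the membrane, adjust gating and bring channels to the surface. The alpha subunits of sensory neurons are sorted by their block by tetrodotoxin: Nav1.1 (Scn1a), Nav1.3 (Scn3a), Nav1.6 (Scn8a) and Nav1.7 (Scn9a) are sensitive, and Nav1.8 (Scn10a) and Nav1.9 (Scn11a) are resistant and found mostly in small nociceptors. Nav1.3 is abundant before birth and low in the adult ganglion. Because whole ganglia were sequenced, fewer cells of a type and less RNA per cell cannot be told apart in any value given here.

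Library totals were alike, from 18484557 to 18756736 estimated reads, and all replicate pairs differed by more than sampling noise. The third SNI + G15 library stood apart: over genes with whole counts its chi-square per gene against the other libraries of its group was 8.34 and 7.35, against 2.05 between those others and 1.61 to 3.96 within the sham and SNI groups (sampling noise alone gives about 1). The labelled tissue held its markers, with all 14 pan-neuronal genes tested and no marker of any cell type list at 0 throughout a group. All 10 nerve injury markers were higher in the SNI than in the sham group, and all 10 were higher in the SNI + G15 than in the sham group (adjusted p under 0.05, edgeR).

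In the sham ganglia the beta subunit gene Scn4b had the highest FPKM of the 9, at 125 ± 0.725 (SD, n = 3). The tetrodotoxin-resistant pair followed, with Scn10a at 107 ± 5.72 and Scn11a at 74.0 ± 2.22. Scn9a, at 34.1 ± 1.52, was the highest of the sensitive alpha subunits, before Scn1a at 21.3 ± 1.35, Scn8a at 14.8 ± 1.14 and Scn3a at 1.60 ± 0.020. Scn3b at 24.5 ± 0.630 and Scn2b at 22.1 ± 2.05 lay between Scn9a and Scn1a. Neighbours in this order did not overlap across the 3 libraries, except Scn2b and Scn1a. In the SNI group the order differed at 1 step: Scn3b, at 39.8 ± 1.10, stood above Scn9a, at 33.7 ± 0.596, and no neighbours overlapped. The SNI + G15 group had the order of the SNI group, with Scn3b at 35.8 ± 1.62 and Scn9a at 28.7 ± 2.38. FPKM is scaled for length, so that it can be compared between genes.

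**Figure D1:**
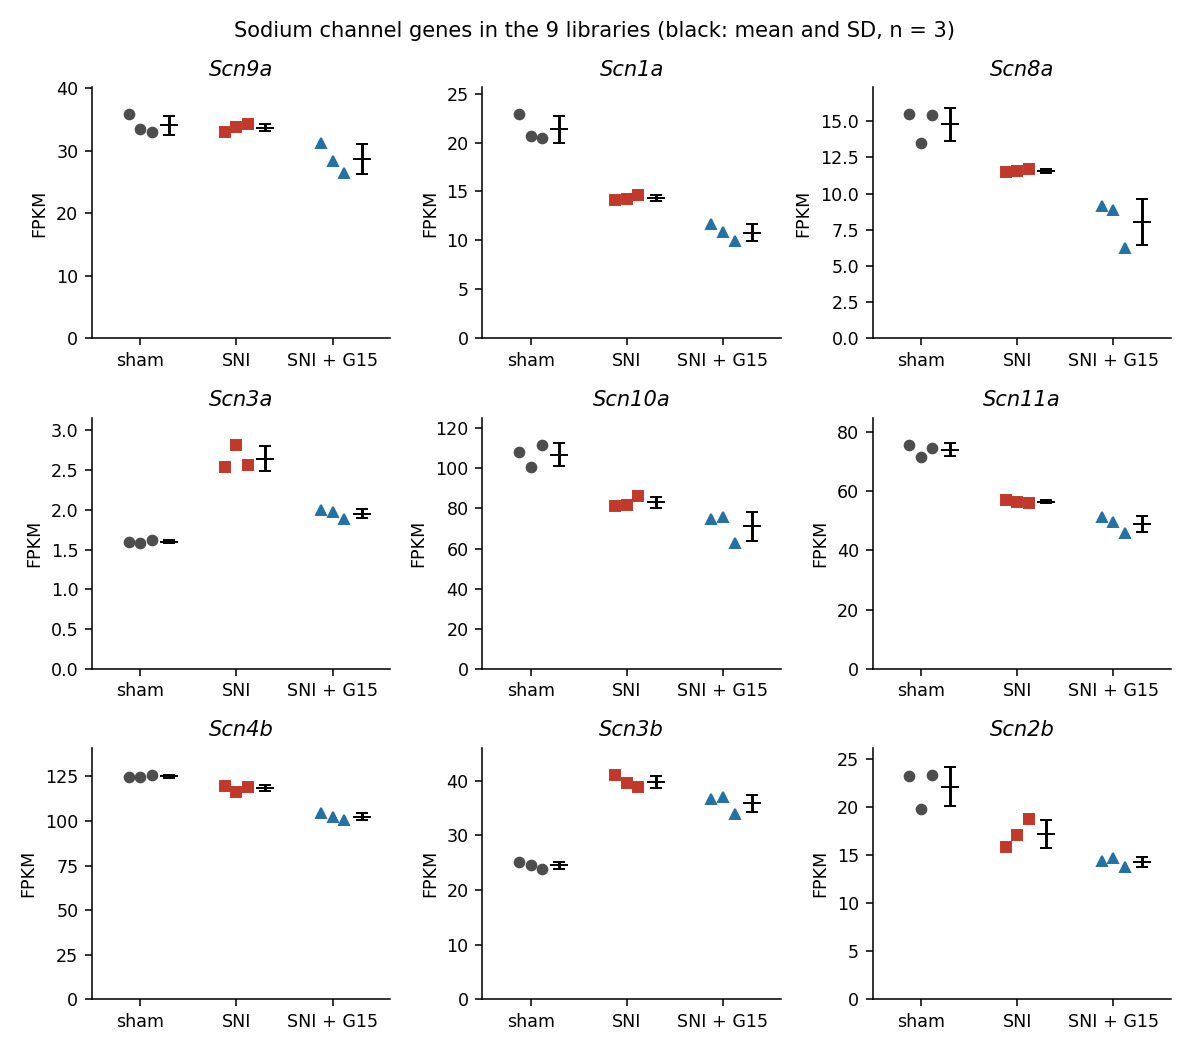
FPKM of the 9 sodium channel genes in each library (vertical axes from 0, scaled per gene), with sham as circles, SNI as squares and SNI + G15 as triangles, and the mean and SD (n = 3) in black. Scn3a and Scn3b were higher in SNI than in sham libraries, and Scn9a overlapped between sham and SNI. All 3 SNI + G15 libraries lay below all 3 SNI libraries for each of the 9 genes. The share of all tested genes separated in this way was not counted. The 1431 longest tested genes, which include the alpha subunit genes shown, had a median log2 fold change of -0.125 between these groups. Their part in the separation was not tested.

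The first comparison asked how the sodium channel genes differed in ganglia of the injured nerve. Scn3a and Scn3b rose in the SNI group, Scn1a, Scn8a, Scn10a, Scn11a, Scn2b and Scn4b fell, and Scn9a did not pass the test. Counted by direction, 2 of the 9 were called higher and 6 lower at an adjusted p below 0.05 (edgeR's quasi-likelihood test, Benjamini-Hochberg over 14305 genes), where 23.3% of all tested genes were higher and 22.4% lower. The median log2 fold change of the 9 was -0.36, and that of all tested genes was 0.0010. A log2 fold change here is a difference of estimated counts after TMM scaling, given with its standard error (SE).

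Scn3a was the gene with the largest rise. Its FPKM was 1.60, 1.58 and 1.62 in the sham libraries and 2.54, 2.82 and 2.56 in the SNI libraries, so that every SNI value lay above every sham value. These levels rested on 243 to 255 estimated reads per sham library and 410 to 459 per SNI library. The log2 fold change was 0.75 ± 0.066 (SE, adjusted p = 6.49e-06), a rise of 67.7%, and 0.48 on the scale of log2(FPKM + 1), where the added 1 pulls in a gene of this level. Scn3a remained the lowest of the 6 alpha members in the SNI group.

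Of the other sensitive alpha subunits, Scn1a showed the largest fall among the 9. Its FPKM was 22.9, 20.6 and 20.5 in the sham libraries and 14.16, 14.22 and 14.65 in the SNI libraries. The groups were well apart, and its log2 fold change was -0.59 ± 0.047 (adjusted p = 2.99e-06). Scn8a, whose channel sits at nodes of Ranvier and initial segments, had 15.5, 13.5 and 15.4 in the sham and 11.5, 11.5 and 11.7 in the SNI libraries. It fell by 23.3% (log2 fold change -0.38 ± 0.055, adjusted p = 0.000247), with no overlap.

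Scn9a codes for Nav1.7, whose loss in people abolishes pain. Its FPKM was 35.8, 33.4 and 33.0 in the sham libraries and 33.0, 33.8 and 34.2 in the SNI libraries, and the groups overlapped. The log2 fold change was -0.05 ± 0.038 (adjusted p = 0.346), and 2 SE on either side of it spanned -0.12 to 0.030. Its sign turned to 0.01 (adjusted p = 0.84) when the libraries were scaled to the pan-neuronal markers, and with offsets for effective length it was -0.10 with an adjusted p of 0.0224.

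The resistant alpha subunits fell by like amounts. Scn10a had an FPKM of 108, 101 and 112 in the sham libraries and 81.3, 81.7 and 86.1 in the SNI libraries. Scn11a had 75.7, 71.5 and 74.7 in the sham libraries and 57.0, 56.5 and 56.0 in the SNI libraries. For both, every SNI library lay below every sham library. The log2 fold change was -0.39 ± 0.043 for Scn10a (adjusted p = 3.12e-05) and -0.42 ± 0.034 for Scn11a (adjusted p = 3.5e-06), and the intervals of 2 SE, -0.48 to -0.31 and -0.48 to -0.35, overlapped.

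Scn10a and Scn11a are also neighbours on chromosome 8 of the rat, transcribed from the same strand with 104420 bases between their starts in RefSeq's GRCr8 annotation. Their upstream sequences are shown because these genes moved together, and that of Scn3a because it moved the other way; capitals mark a match to any of 6 motifs searched on both strands. The windows are the 250 bases before each start, read 5′ to 3′ on the minus strand: chr8:128340299-128340548 for Scn10a, chr8:128444719-128444968 for Scn11a and chr3:70666199-70666448 for Scn3a.
Scn10a: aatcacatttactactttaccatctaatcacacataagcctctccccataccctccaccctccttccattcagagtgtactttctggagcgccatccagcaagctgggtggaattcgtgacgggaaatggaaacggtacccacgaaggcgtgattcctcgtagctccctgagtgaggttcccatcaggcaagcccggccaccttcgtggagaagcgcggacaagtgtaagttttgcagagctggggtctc
Scn11a: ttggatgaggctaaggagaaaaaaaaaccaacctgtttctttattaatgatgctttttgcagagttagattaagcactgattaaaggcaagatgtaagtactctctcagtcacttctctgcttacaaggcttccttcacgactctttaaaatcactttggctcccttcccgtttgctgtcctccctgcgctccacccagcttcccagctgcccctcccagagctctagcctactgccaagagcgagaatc
Scn3a: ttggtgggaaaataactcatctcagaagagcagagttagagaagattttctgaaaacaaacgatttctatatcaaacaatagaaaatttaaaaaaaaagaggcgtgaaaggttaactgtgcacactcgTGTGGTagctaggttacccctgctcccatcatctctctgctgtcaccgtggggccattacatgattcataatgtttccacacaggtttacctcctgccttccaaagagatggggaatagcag
The windows of Scn10a and Scn11a held none of them, and that of Scn3a held 1 Runx match, 122 bases before the start. The window of Scn2b, a gene that fell in the SNI group, also held 1 Runx match, 70 bases before its start. The motifs searched are given with their share among 33469 RefSeq windows of the same length. The AP-1 letters TGACTCA were in 4.05% of these windows. The CRE, spelled TGACGTCA, was in 1.59%. The GC box, GGGCGG, was in 30.5%. The Runx letters TGTGGT were in 14.5%. The octamer, ATGCAAAT, was in 1.56%. The TATA box, TATAAA, was in 12.9%. Of the 9 genes, 7 matched a window. GC content was 53.2% for Scn10a, 46.4% for Scn11a and 41.6% for Scn3a, beside a median of 51.2% over all windows; Scn8a had 86.0% and 6 GC boxes, Scn4b 71.6%, Scn9a 52.4% and Scn2b 38.8%. A match is a run of letters and not a bound site.

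The beta subunits went different ways. Scn3b codes for beta3, which binds alpha subunits without a disulfide bond. Its FPKM was 25.2, 24.5 and 23.9 in the sham and 41.05, 39.6 and 38.9 in the SNI libraries, far apart. The rise was 59.2% (log2 fold change 0.67 ± 0.041, adjusted p = 4e-07), the smallest adjusted p of the 9. Scn2b, whose beta2 product is linked to the alpha subunit by a disulfide bond, had 23.2, 19.7 and 23.3 in the sham and 15.8, 17.0 and 18.8 in the SNI libraries, with no overlap. Its log2 fold change was -0.36 ± 0.053 (adjusted p = 0.000264). Scn4b codes for beta4, which is also disulfide-linked and takes part in resurgent current. It had 124.6, 124.5 and 125.8 in the sham and 119.5, 116.4 and 119.1 in the SNI libraries, the smallest difference called (log2 fold change -0.11 ± 0.030, adjusted p = 0.0144). The call on Scn4b was lost without the second SNI library (adjusted p = 0.0802), when the libraries were scaled to the pan-neuronal markers (0.263) and with limma-trend on log2(FPKM + 1) (0.0774) or log2(FPKM + 0.1) (0.0738).

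The calls on the other 7 genes held under all 15 alternatives. Scaling to the pan-neuronal markers moved the median of all tested genes to 0.060 and the split of calls from 3336 higher and 3201 lower to 4107 and 2176, with 2 members higher and 5 lower.

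**Figure D2:**
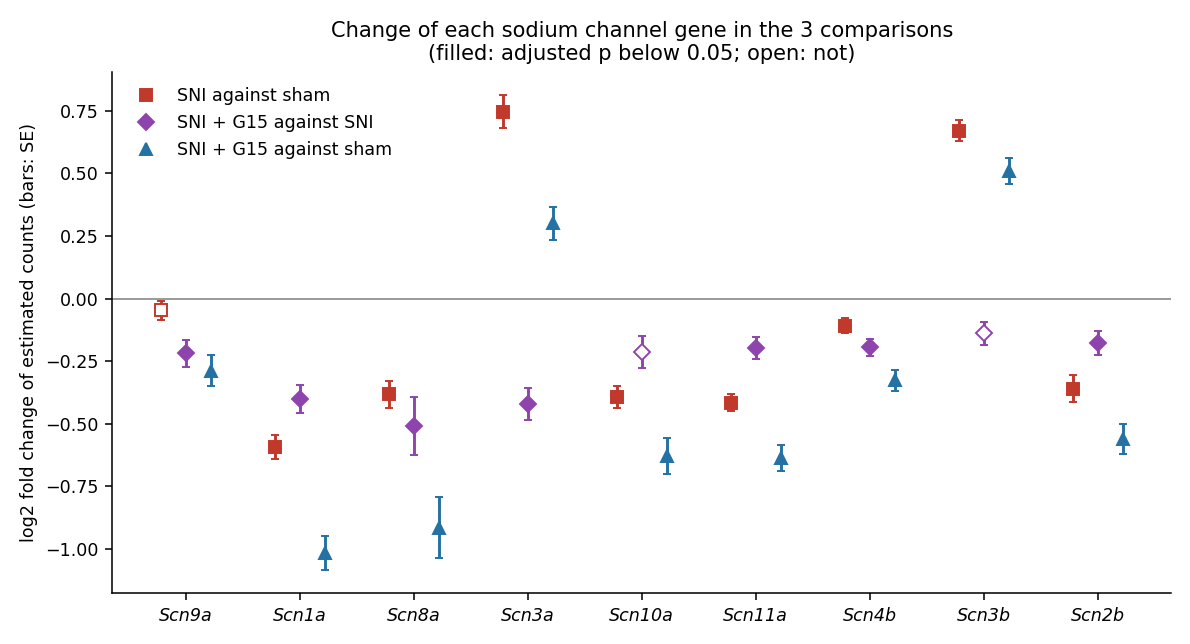
Log2 fold change of estimated counts for each sodium channel gene in the 3 comparisons (bars: SE; filled symbols: passed the test). Scn3a at 0.75 and Scn3b at 0.67 stood above 0 in SNI against sham, and all 9 values of SNI + G15 against SNI were below 0, between -0.51 for Scn8a and -0.14 for Scn3b.

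Summed over the 6 alpha members, FPKM was 260, 241 and 257 in the sham libraries and 199.5, 200.5 and 205 in the SNI libraries. The sum over the 3 beta members was 173, 169 and 173 in the sham and 176, 173 and 177 in the SNI libraries. The alpha sum was lower and the beta sum higher, by 3.83 in the mean, in SNI libraries, and neither overlapped. Within the alpha sum, Scn10a and Scn11a made up 71.6% ± 0.890 in the sham and 69.2% ± 0.230 in the SNI group, Scn9a 13.5% ± 0.565 and 16.7% ± 0.155, and Scn3a 0.634% ± 0.020 and 1.31% ± 0.085. Within the beta sum, Scn3b made up 14.3% ± 0.416 and 22.7% ± 0.653, and Scn2b 12.9% ± 1.02 and 9.81% ± 0.818. None of these shares overlapped between the groups, and the exact two-sided permutation p was 0.1 for each, the smallest that 3 against 3 samples can give (0.123 after adjustment over the 27 such tests).

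**Figure D3:**
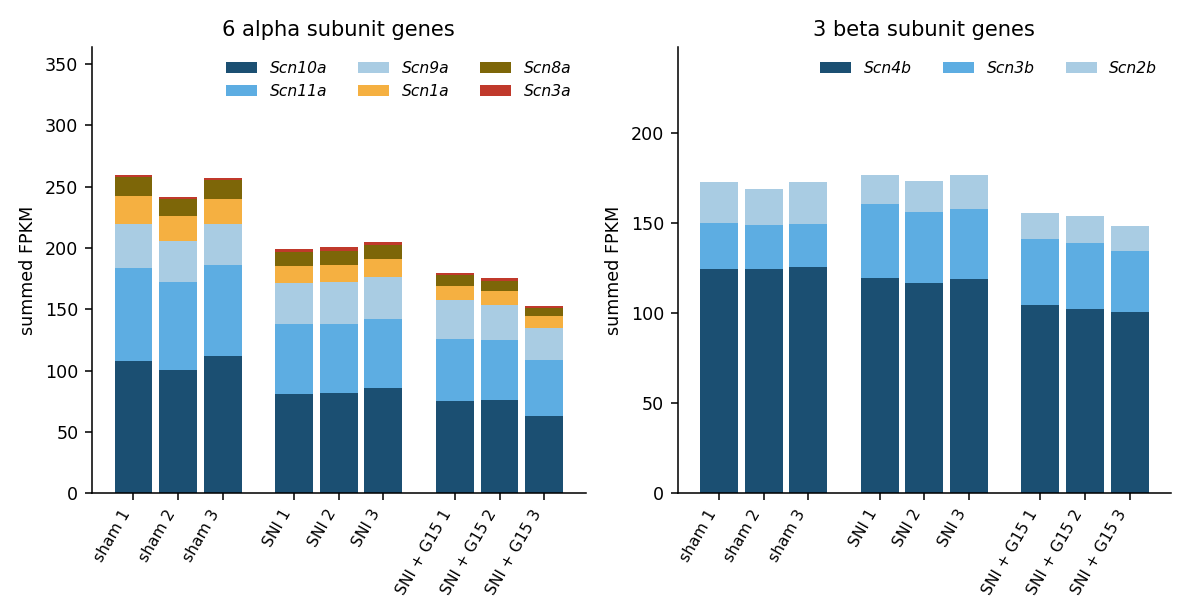
FPKM of the alpha members (left) and beta members (right) stacked for each library, from 0. The alpha sums lay between 241 and 260 in sham, 199.5 and 205 in SNI and 153 and 180 in SNI + G15 libraries, and the Scn3b part of the beta sum was wider in the 6 libraries with SNI.

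Alpha subunit genes outside the 9 were compared as well. Scn7a, coding for the sodium-sensing channel Nax, rose from 103 ± 5.47 to 121 ± 2.89 (log2 fold change 0.20, adjusted p = 0.00164). Scn2a, with 1.28 ± 0.059 and 1.25 ± 0.116, and Scn4a, with 1.11 ± 0.168 and 0.973 ± 0.061, did not pass the test (adjusted p = 0.602 and 0.153).

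Genes that work with these channels were taken from lists of partners, of nodes and initial segments, of turnover, of regulators and of the sodium gradient. Of 11 tested partners, 2 rose and 5 fell: among those that fell were Fgf12 (-0.32), Prrt2 (-0.29) and Fgf13 (-0.24), the Fgf genes coding for intracellular factors that bind the channel's tail. Of 13 node and initial segment genes, 7 fell, led by Cntnap2 (-0.35) and Adam22 (-0.34), which serve the juxtaparanode, Cntn2 (-0.26) and Epb41l3 (-0.25), while the anchor Ank3 did not pass the test (0.12, adjusted p = 0.0952). Of 17 genes of the sodium gradient and leak, 11 fell, among them the sodium pump modulators Fxyd6 (-0.53) and Fxyd7 (-0.50), and 1 rose, Atp1b2 (0.76). Bace2 rose (0.29) and Bace1 (-0.24) and Nedd4l (-0.15) fell among 5 turnover genes, Bace1 coding for a protease that cuts beta subunits and Nedd4l for a ubiquitin ligase of the channels. Of 5 regulators, Rest rose (0.35), and Isl1 (-0.35) and Runx1 (-0.18) fell. Rest was called in 9, Nedd4l in 8 and Runx1 in 6 of the 15 alternatives (-0.253 to -0.035 for Runx1), and the other called genes named here in all 15. The list medians were -0.049, -0.176, -0.205, 0.055 and 0.006 in the order partners, nodes, gradient, turnover and regulators.

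Markers of cells in the ganglion moved at the same time, and their part in the changes of the 9 genes was not tested. Of 14 pan-neuronal markers 3 were higher and 5 lower in the SNI group, with a median log2 fold change of -0.05, close to that of all genes. Non-peptidergic nociceptor markers gave 1 higher and 2 lower of 7, peptidergic ones 1 and 3 of 6, and 4 of 7 large A-fibre markers were lower. The summed FPKM of the A-fibre list was 2529 to 2632 in the sham and 1652 to 1792 in the SNI libraries. Of 8 macrophage markers 7 were higher, with sums of 86.1 to 94.7 in the sham and 198 to 217 in the SNI libraries, and 6 of 8 Schwann cell markers were lower, with sums of 5344 to 5473 and 3045 to 3107. Satellite glia gave 2 higher and 1 lower of 6, fibroblasts 2 and 2 of 6, vessels 2 and 1 of 6, and none of 4 tested muscle markers passed with edgeR or DESeq2, with 1 at an unadjusted p below 0.05.

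The second comparison asked how the same genes differed when GPER was blocked after the injury. All 9 had a log2 fold change below 0 in the SNI + G15 group against the SNI group, and 7 of them passed edgeR's quasi-likelihood test with an adjusted p under 0.05: Scn1a, Scn3a, Scn8a, Scn9a, Scn11a, Scn2b and Scn4b. No member was called higher, and none had an unadjusted p below 0.05 in that direction or was called higher under any of the 15 alternatives, DESeq2 included. Among all tested genes 7.98% were higher and 7.25% lower. The median of the 9 was -0.21 and that of all genes 0.0063. For 7 of the 9 the mean FPKM of the SNI + G15 group lay below both other groups, and for Scn3a and Scn3b it lay between sham and SNI. The share of all tested genes with a mean below both other groups was not counted. The 1431 longest tested genes, which include the alpha subunit genes, had medians below 0 in the SNI + G15 group. These were -0.125 against SNI and -0.082 against sham.

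Fold changes ran with gene length in this comparison. The 6 alpha genes belong to the 10% of tested genes that are longest, with effective lengths from 5967 bases for Scn11a to 9432 for Scn9a. Of these 1431 genes, 19.1% were called lower in the SNI + G15 group and the median log2 fold change was -0.125. Their upper quartile, at -0.045, was itself below 0. The shortest 10% had 1.96% called lower and a median of 0.22. By library, the median log2 ratio of the longest 10% to the sham mean was -0.018, -0.048 and -0.145 in the SNI + G15 libraries, lowest in the third, and 0.026 to 0.073 in the SNI libraries. In SNI against sham the longest 10% had a median of 0.056. With offsets that remove the trend of each library with effective length, 4 members were lower, Scn1a, Scn3a, Scn8a and Scn4b, and none was higher. The part of gene length in the members' values was not tested beyond that.

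**Figure D4:**
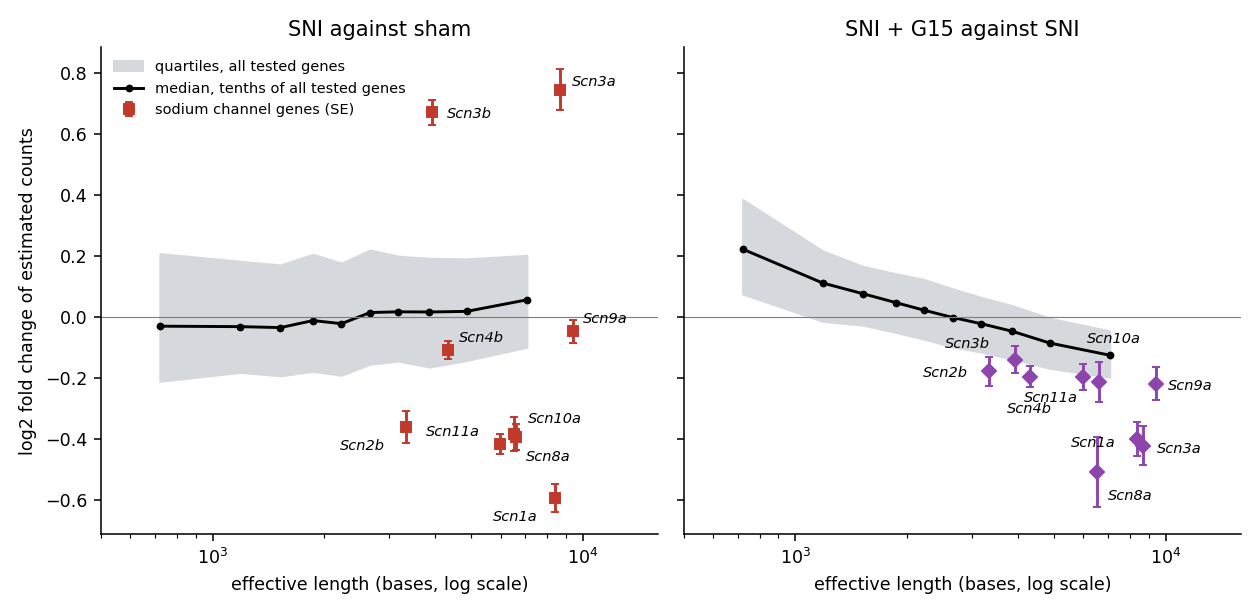
Log2 fold change against effective length in bases (log axis) for SNI against sham (left) and SNI + G15 against SNI (right), with the median and quartiles of all tested genes in 10 bins by length and the 9 sodium channel genes with their SE. In the right panel the median ran from 0.22 in the shortest bin to -0.125 in the longest, and Scn1a, Scn3a and Scn8a lay farthest below the medians.

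Scn1a, Scn3a and Scn4b were called lower under all 15 alternatives. Scn1a had an FPKM of 11.7, 10.8 and 9.91 in the SNI + G15 libraries, below all SNI libraries (log2 fold change -0.40 ± 0.056, adjusted p = 0.00241), and its value was -0.27 with length offsets. Scn3a had 2.00, 1.97 and 1.89, below the SNI and above the sham libraries without overlap (-0.42 ± 0.064, adjusted p = 0.00341), and -0.29 with length offsets. Scn4b had 104.6, 102.1 and 100.5, below both other groups (-0.20 ± 0.034, adjusted p = 0.00647), and -0.13 with length offsets (adjusted p = 0.0235).

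Scn8a had the lowest log2 fold change of the 9 and the widest spread. Its FPKM was 9.11, 8.86 and 6.24, the third SNI + G15 library being well below the others. The fold change was -0.51 ± 0.115 (adjusted p = 0.0205), and -0.36 (0.000365) without that library. Leaving out the first, the second or the third SNI library gave adjusted p-values of 0.0606, 0.0732 and 0.074.

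Scn9a had 31.2, 28.3 and 26.5, below all SNI and sham libraries (-0.22 ± 0.054, adjusted p = 0.0288). Its call was lost under 7 of 15 alternatives, among them length offsets (-0.08, 0.176), pan-neuronal scaling (0.114) and the omission of any SNI library (0.0746 to 0.111) or of the second SNI + G15 library (0.0729). Scn11a had 51.1, 49.7 and 45.8 (-0.20 ± 0.043, adjusted p = 0.0183), and lost its call under 6 of 15, among them length offsets (-0.10, 0.0815), pan-neuronal scaling (0.094) and the omission of any SNI library (0.0702 to 0.0764). Scn10a had 74.8, 75.7 and 62.7, below all SNI libraries, with a log2 fold change of -0.21 ± 0.065 that missed the threshold (adjusted p = 0.057, interval of 2 SE -0.34 to -0.083). Without the third SNI + G15 library its value was -0.14 with a smaller spread (adjusted p = 0.0202), without the second -0.26 (0.0479), and with DESeq2 the adjusted p was 0.00977. With length offsets Scn10a and Scn11a both had -0.10.

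Scn2b had 14.3, 14.7 and 13.7, all below the SNI libraries (-0.18 ± 0.048, adjusted p = 0.0392), and was called under 5 of 15 alternatives. Its adjusted p was 0.0952 with DESeq2, 0.0669 to 0.152 without 1 of the SNI libraries, and 0.065 and 0.097 without the first and second SNI + G15 library. Scn3b had 36.6, 36.9 and 34.0, below the SNI and far above the sham libraries, and missed the threshold (-0.14 ± 0.045, adjusted p = 0.0678, interval of 2 SE -0.23 to -0.050). Without the third SNI + G15 library 8 members were lower, and without any 1 SNI library 3 were.

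**Figure D5:**
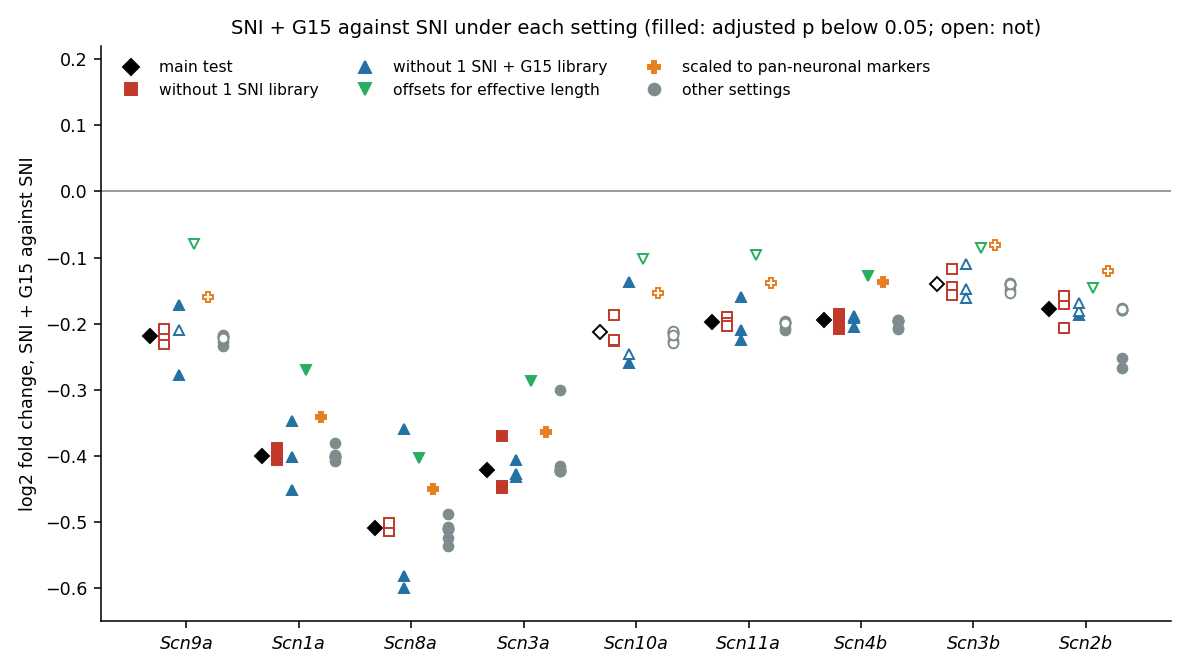
Log2 fold change of each sodium channel gene in SNI + G15 against SNI under the main test and the 15 alternatives (filled: adjusted p below 0.05; open: not). Every value lay below 0, and Scn1a, Scn3a and Scn4b had filled symbols throughout, while Scn9a, Scn11a and Scn2b were mixed.

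Scaling to the pan-neuronal markers moved the split of all calls from 1142 higher and 1037 lower to 1933 and 497, the median of all genes to 0.064, and the members to 4 lower. The summed alpha FPKM was 180, 175 and 153 in the SNI + G15 libraries and the summed beta FPKM 156, 154 and 148, each below all SNI libraries. Scn3b made up 23.5% ± 0.555 of the beta sum and Scn9a 16.9% ± 0.683 of the alpha sum, both overlapping the SNI group (exact permutation p = 0.2 and 0.6). Scn10a and Scn11a made up 70.8% ± 0.756 of the alpha sum, above all SNI libraries (exact permutation p = 0.1) and overlapping the sham group (exact permutation p = 0.5). Scn1a and Scn8a together made up 11.1% ± 0.509 of the alpha sum against 12.8% ± 0.0027 in the SNI group, without overlap (exact permutation p = 0.1).

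Outside the 9, neither Scn7a nor Scn4a passed the test in SNI + G15 against SNI. Scn7a had 107 ± 9.69 (-0.16, adjusted p = 0.0887) and Scn4a 0.660 ± 0.166 (-0.54, adjusted p = 0.0665). Of the partners 1 rose, S100a10 (0.30), which helps Nav1.8 reach the membrane, and 3 fell, Map1b (-0.25), Dpysl2 (-0.21) and Fgf12 (-0.17). Of the node genes Gldn rose (0.61) and 6 fell, led by Cntnap2 (-0.31), Ank2 (-0.27) and the initial segment anchor Ank3 (-0.22). Nedd4l was the 1 turnover gene to fall (-0.27). Of the gradient genes 2 rose, Fxyd1 (0.46) and Fxyd6 (0.24), and 6 fell, with the leak channel Nalcn (-0.33) and the exchanger Slc8a1 (-0.28) first. With length offsets the partner list gave 0 higher and 3 lower, so that the call on S100a10 was lost, the node list 1 and 2, and the gradient list 2 and 2. Under the 15 alternatives S100a10 was called in 12 (0.037 to 0.359), Cntnap2 in 11, Nalcn in 7, Fgf12 in 6 and Slc8a1 in 5, and the other called genes named here in 14 or 15. No regulator passed, with 0 of 5 also by unadjusted p and by DESeq2.

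Other cells' markers again differed between these groups, and their part in the values was not tested. All 6 fibroblast markers were higher in the SNI + G15 group, with summed FPKM of 606 to 630 against 449.9 to 452 in the SNI libraries, and 4 of 6 vascular markers were higher, with 106 to 116 against 77.6 to 81.4. Schwann cell markers gave 5 of 8 higher, satellite glia 2 higher and 2 lower of 6, macrophages 2 of 8 higher and nerve injury markers 1 of 10 higher. Of the 14 pan-neuronal markers 1 was higher and 3 lower (median -0.05). Non-peptidergic nociceptor markers gave 4 of 7 lower (median -0.22), and peptidergic ones 1 higher and 1 lower of 6. None of 7 large A-fibre markers passed with edgeR or DESeq2, with 1 at an unadjusted p below 0.05, and the same counts held for 4 tested muscle markers.

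The third comparison set SNI + G15 against sham. It shares its groups with the other comparisons, so its values are not independent of theirs. Scn3a and Scn3b were higher and the other 7 lower by edgeR's quasi-likelihood test with an adjusted p under 0.05, where 21.4% of all tested genes were higher and 21.9% lower. Scn1a fell by 50.5% (log2 fold change -1.02 ± 0.068, adjusted p = 2.14e-06) and Scn8a by 47.0% (-0.92 ± 0.121, adjusted p = 0.000202). Scn10a fell by 35.4% (-0.63 ± 0.072) and Scn11a fell by 35.7% (-0.64 ± 0.052). Scn2b fell by 32.2% and Scn4b fell by 20.2%. Scn3b stayed 42.2% higher (0.51 ± 0.052, adjusted p = 3.61e-05). Scn3a was 23.2% higher (0.30 ± 0.067, adjusted p = 0.00472), a call lost with limma-trend on log2(FPKM + 1) and log2(FPKM + 0.1) (adjusted p = 0.0611 and 0.0604).

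Scn9a, which had not passed the test between sham and SNI, fell by 18.1% (-0.29 ± 0.062, adjusted p = 0.00381). With the pan-neuronal scaling its value was -0.15 and the call was lost (adjusted p = 0.101). That scaling moved the median of all genes to 0.136 and the split of calls from 3056 higher and 3130 lower to 5081 and 1703, with 2 members higher and 6 lower. Scn4b then had -0.19 (adjusted p = 0.00897). Outside the 9, Scn4a was lower (-0.80, adjusted p = 0.00642), and Scn7a (0.02) and Scn2a (-0.09) did not pass.

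The same 5 lists of genes that work with the channels were compared between SNI + G15 and sham. Of 11 partners 1 was higher, S100a10 (0.52), and 7 lower, with Fgf12 (-0.51), Map1b (-0.50) and Prrt2 (-0.44) first. Of 13 node genes Gldn was higher (0.72) and 9 lower, led by Cntnap2 (-0.68), Adam22 (-0.57) and Cntn2 (-0.46). Of 17 gradient genes 13 were lower and 2 higher, Atp1b2 (0.66) and Fxyd1 (0.62). Bace1 (-0.59) and Nedd4l (-0.45) were lower and Bace2 (0.29) higher. Isl1 (-0.45) and Runx1 (-0.24) were lower and Rest (0.34) higher, with Runx1 and Rest called in 8 of 15 alternatives each. With the pan-neuronal scaling 4 of 11 partners, 6 of 13 node genes, 10 of 17 gradient genes, 2 of 5 turnover genes and 1 of 5 regulators were lower.

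Markers of the ganglion's cells differed here too, and their part in the members' values was not tested. All 8 macrophage markers were higher in the SNI + G15 than in the sham group, with summed FPKM of 214 to 228 against 86.1 to 94.7, as were all 6 fibroblast and 5 of 6 vascular markers. Schwann cell markers gave 5 of 8 lower, with sums of 3259 to 3396 against 5344 to 5473, and satellite glia 3 higher and 2 lower of 6. Of the neuronal lists, pan-neuronal markers gave 3 higher and 6 lower of 14, non-peptidergic nociceptors 4 of 7 lower, peptidergic ones 2 higher and 3 lower of 6, and large A-fibre neurons 4 of 7 lower. None of 4 tested muscle markers passed with edgeR or DESeq2, with 1 at an unadjusted p below 0.05.

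The transcript table split 6 of the 9 genes over several transcripts, 29 in all, and held 1 transcript each for Scn8a, Scn9a and Scn4b. Of the 24 that passed the filter, 7 were called in SNI against sham, 2 higher and 5 lower, where 10.3% of 25998 transcripts were called. The edgeR test took the estimated counts as given and did not include the error of dividing reads between a gene's transcripts. The main transcript of Scn11a, NM_019265.2, held 95.6% ± 1.21 of the gene's FPKM in the sham group and fell (-0.50 ± 0.051, adjusted p = 0.00511). NM_017247.1 of Scn10a, with 64.5% ± 4.11, fell too (-0.45 ± 0.075, adjusted p = 0.0226). XM_017595503.1 of the same gene, with 33.5% ± 4.33, also had a value below 0 but did not pass (-0.28 ± 0.148, adjusted p = 0.345). Whether these 2 transcripts differed in their change was not tested. NM_139097.3 carried 87.6% ± 0.819 of Scn3b and rose (0.65 ± 0.030, adjusted p = 0.000544), and XM_017591972.1 carried 79.3% ± 16.2 of Scn3a and rose (0.88 ± 0.174, adjusted p = 0.0369).

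Scn1a was divided over 4 transcripts of at least 10% whose shares differed widely between replicates. XM_017592056.1 had an FPKM of 8.29, 9.75 and 6.76 in the sham, 4.14, 7.11 and 3.38 in the SNI and 3.40, 0 and 0 in the SNI + G15 libraries. NM_030875.1 had 5.42, 3.61 and 6.13 in the sham, 6.32, 4.89 and 4.36 in the SNI and 5.33, 6.47 and 3.64 in the SNI + G15 libraries, and no Scn1a transcript was called in any comparison. Scn2b was split between XM_006242895.3 and NM_012877.1, and the former fell in the SNI group (-0.34 ± 0.045, adjusted p = 0.0113); NM_012877.1 had a like value with a wide error (-0.47 ± 0.262, adjusted p = 0.376). The transcripts of Scn8a and Scn4b were called lower as well. In SNI + G15 against SNI no transcript of the 9 genes was called by edgeR, 8 had an unadjusted p below 0.05, and 0.662% of all transcripts were called. In SNI + G15 against sham 7 were called, 1 higher and 6 lower, beside 10.4% of all transcripts. NM_139097.3 of Scn3b was the higher one, and XM_017595503.1 of Scn10a was among the lower (-0.76 ± 0.145, adjusted p = 0.0333).

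The estimated counts were not whole in all 9 libraries for Scn1a, Scn3a, Scn8a, Scn9a, Scn10a, Scn2b and Scn3b and in 5 libraries for Scn11a, whereas those of Scn4b were whole throughout. The cause was not tested, and Scn8a and Scn9a have 1 transcript each in the table.

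Genes with the most similar course over the 9 libraries were listed by Pearson's r of log2 CPM (depth-scaled counts) among 14294 other tested genes, without a test, since all points come from the same 3 groups. For Scn10a they were Epb41l1, Map1a and Gabbr2 (r = 0.997, 0.996 and 0.996), for Scn11a the potassium channel gene Kcna2, Susd4 and Phf24 (0.998, 0.997 and 0.997), and for Scn8a the potassium channel gene Kcna1, Atp8a2 and Apba1 (0.997, 0.996 and 0.995). Scn1a was closest to Dpp10, Dnm3 and Ttll7 (0.999, 0.998 and 0.998), Scn9a to Fam102b, Cpne3 and Gabra2 (0.990, 0.988 and 0.986) and Scn2b to Enpp2, Etv1 and Dner (0.993, 0.992 and 0.991). The genes that rose had other neighbours: Scn3b was closest to Mpeg1, Arrdc4 and the complement gene C3 (0.996, 0.994 and 0.994), and Scn3a to Mov10, Rab3gap2 and Ms4a7 (0.992, 0.988 and 0.985). Scn4b was closest to Cmpk2, Rtn1 and Oasl (0.994, 0.993 and 0.992). Among the members themselves r was highest for Scn1a with Scn11a, at 0.991, then 0.981 for Scn10a with Scn11a and 0.976 for Scn11a with Scn2b. It was 0.904 for Scn3a with Scn3b and lowest, at -0.848, for Scn2b with Scn3b.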

How the data were processed

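Total RNA of rat ganglia in 3 groups was sequenced in paired reads of 150 bp. For genes and for transcripts, the authors deposited an FPKM, scaled for length and library size, and an unscaled estimated count, which was often not a whole number. The aligner, the counter and the annotation are not given in the sources used here. The submitters' processing notes name the mouse builds GRCm38 and mm10, while the identifiers are those of rat genes, and the labels' extraction text names another cell type and library kit than the methods. The columns named for a control were taken as sham, the group left by the other column names.

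After rounding, the estimated counts were compared in R 4.3.3 by the quasi-likelihood test of edgeR 4.0.16, with TMM scaling and only the groups compared in each fit, over genes reaching an FPKM of 1 in any library, with Benjamini-Hochberg adjustment over all of them and a threshold of 0.05. An SE is the log2 fold change divided by the square root of its F statistic. Alternatives used DESeq2 1.42.0, limma 3.58.1, other scalings and filters, offsets for effective length, a replicate block, and each library left out. The scripts were tested on simulated data. All 9 members, the other subunits, at most 4 called genes per list and comparison, transcripts reaching 10% of a member in a group and the 3 nearest genes by r were named; some genes that this rule selects are left out. The members and lists were chosen with earlier results of these data known. Upstream sequences came from RefSeq (GRCr8), which did not serve for the deposited values. Of 20194 gene IDs, 18599 matched its table. Deposited averages and plot tables were not used.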

Additional observations from a re-analysis of the deposited data

How the results depend on the processing

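Each comparison was run under 15 alternatives. Of 135 alternative values of the members in SNI against sham, 129 kept direction and side of the threshold, 4 lost the call (Scn4b), 1 gained it (Scn9a), and 1 reversed, Scn9a at 0.0122 with scaling to the pan-neuronal markers. In SNI + G15 against SNI 104 of 135 did, with 26 calls lost, 5 gained and none reversed; in SNI + G15 against sham 132 of 135 did. In SNI + G15 against SNI, 4 members were lower with offsets for effective length and 4 with scaling to the pan-neuronal markers, in place of 7; leaving out 1 library gave 3 to 8 members and 893 to 2333 genes, in place of 2179. In SNI + G15 against sham, 1 member was higher with limma-trend on log2(FPKM + 1) and 1 on log2(FPKM + 0.1), in place of 2. The causes were not tested. With 1 library left out, 2 to 5 transcripts of members were called between SNI and sham, and 4 to 6 between SNI + G15 and sham, in place of 7.

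Same-numbered libraries did not deviate together, with correlations of -0.117 to 0.115 over 9 pairs and 1 above 0.1. With 3 libraries a group, this check cannot decide whether the numbers pair the samples. With the replicate block, SNI + G15 against SNI gave 1292 genes and 4 members lower, and the transcripts of members called were 2 in SNI against sham and 1 when SNI + G15 was set against sham.

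Of 45 transcript shares, 39 stayed within 1 SD when taken from estimated counts, and the 6 of Scn2b did not: NM_012877.1 had 9.05%, 8.37% and 6.72% and XM_006242895.3 90.95%, 91.6% and 93.3% in sham, SNI and SNI + G15. With 3 libraries a group, an exact permutation test cannot go below 0.1.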
